A study of Mus musculus with 22 samples.

Results

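The 10 genes described here are mouse Prame-like and oogenesin genes, taken by symbol from a table of 55335 genes: Oog1, Oog2, Oog3, Oog4, Pramef12, Pramef6, Pramef8, Pramef17, Pramef25 and Gm13078. Prame-like genes encode leucine-rich repeat proteins related to PRAME, an antigen of human tumours and testis that serves as a substrate receptor of a cullin-RING ubiquitin ligase. In the mouse the family has expanded in tandem, and many of its genes are transcribed in germ cells, oocytes or cleaving embryos. The oogenesins are transcribed in growing oocytes, whose RNA is inherited by the embryo and largely degraded during cleavage while the embryo's own genome is activated. A further 31 genes of the table belong to the same family by symbol, RefSeq symbol or RefSeq synonym and are given for comparison. Gene descriptions were not searched. The 31 include Pramef12os, annotated as antisense, and Pramel, annotated as an unprocessed pseudogene. Genes that share sequence with a member under another name, such as Gm2042, are not among them.

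RNA was sequenced from preimplantation embryos with and without knockdown (KD) of H2A.Z, a variant of histone H2A encoded by H2afz and H2afv, to ask what the variant does to transcript levels at each stage. There were 22 libraries of 15 embryos each, made from polyadenylated RNA by Smart-seq2 after removal of the zona pellucida. Controls gave 4 libraries at the 2-cell stage, 4 at the morula stage and 4 at the blastocyst stage, and KD embryos gave 3, 3 and 4. The strain is labelled B6D2F1 for every library, and the females were aged 8 weeks. KD zygotes received about 10 pL of a 20 µM mixture of siRNAs against H2A.Z at 20 to 22 h after hCG and were then cultured. The treatment of the control embryos that were sequenced is not given in the sources used here. Embryos were collected at 43 to 44 h after hCG as 2-cell embryos, at 78 h as morulae and at 94 h as blastocysts. Levels are FPKM, counts of sequenced fragments divided by transcript length and by library size, which can be set side by side between genes. Values are listed in the order of the replicate numbers, which are 1, 2, 4 and 5 for 2-cell controls and 1, 2 and 4 for 2-cell KD, 1, 2, 7 and 8 for morula controls and 1, 2 and 6 for morula KD, and 1, 4, 5 and 6 for both blastocyst groups. Sequencing depth is unknown, because only 12.1 to 23.9% of the low values of single-exon genes lay within 2% of a whole multiple of a common step, and whole fragments could not be recovered.

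H2afz stood at 1244, 1236, 905 and 1178 FPKM in 2-cell controls and at 415, 139 and 112 FPKM in 2-cell KD embryos. It stood at 1158, 1336, 1511 and 1421 FPKM in morula controls against 30.3, 25.7 and 29.0 FPKM in KD morulae. In blastocysts the values were 2656, 2431, 1945 and 2055 FPKM in controls and 64.2, 67.2, 53.2 and 57.6 FPKM after KD. Every KD library lay below every control library of its stage, and 2-cell KD library 1 kept the most H2afz of the KD libraries. H2afv, the second gene, stood at 111, 118, 96.8 and 113 FPKM in 2-cell controls and at 97.6, 85.4 and 83.7 FPKM in 2-cell KD embryos. It stood at 97.3, 113, 100 and 92.5 FPKM in morula controls against 12.9, 11.01 and 9.90 FPKM in KD morulae. In blastocysts it stood at 49.9, 62.0, 54.5 and 63.5 FPKM in controls against 19.9, 16.9, 10.6 and 13.9 FPKM after KD. H2afv was thus apart in morulae and blastocysts, and its ranges overlapped at the 2-cell stage. Differences were tested with limma on log2(scaled FPKM + 1), a scale that understates the change of genes with low values, and a gene was called at a Benjamini-Hochberg adjusted p under 0.05 and a log2 fold change above 1 in size. On that scale H2afz fell by 5.41 in KD morulae (limma adjusted p 9.72e-08, lower in 3 of 3 KD libraries) and fell by 5.19 in KD blastocysts (adjusted p 3.63e-08, lower in 4 of 4). H2afv fell by 2.94 (adjusted p 2.92e-06, lower in 3 of 3) and fell by 1.86 (adjusted p 7.98e-05, lower in 4 of 4). At the 2-cell stage the H2afz difference was -2.53 with an adjusted p of 0.544 and was not called. Without 2-cell KD library 1 it was -3.12 with an adjusted p of 0.000909 and was called, and over all alternatives its adjusted p lay between 0.000909 and 0.861.

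Oog1 (ENSMUSG00000096576.2) lies on chromosome 12 at 87602688 to 87608850 of mm10, on the + strand. The other 9 genes lie within one stretch of chromosome 4, among 24 genes listed here as family, Pramef12os included. From one end to the other they are Pramef8 (ENSMUSG00000046862.14, 143412426 to 143421091, + strand), Oog4 (ENSMUSG00000047799.15, 143437164 to 143450324, - strand) and Gm13078 (ENSMUSG00000046435.7, 143719455 to 143729158, + strand). Next come Pramef6 (ENSMUSG00000078512.8, 143894237 to 143900380, - strand), Pramef25 (ENSMUSG00000078511.3, 143948580 to 143951016, - strand) and Pramef17 (ENSMUSG00000078509.1, 143991119 to 143994369, - strand). Oog3 (ENSMUSG00000050810.8, 144157557 to 144162663, - strand), Oog2 (ENSMUSG00000066030.6, 144190719 to 144196934, + strand) and Pramef12 (ENSMUSG00000028591.11, 144391674 to 144408464, - strand) close the stretch. All 10 are annotated as protein-coding. RefSeq names 6 of them as Pramel genes, Pramef12 as Pramel13, Pramef6 as Pramel11, Pramef8 as Pramel12, Pramef17 as Pramel14, Pramef25 as Pramel16 and Gm13078 as Pramel24. Copies of the family share sequence, so the level of a member is uncertain where the authors' counting could divide fragments between copies. Of the stretches of 100 bases in Oog1 transcripts, 78.0% also occur in transcripts of another gene, chiefly Gm2042. The share was 56.35% for Pramef17, all with Gm13128, 26.5% for Pramef25, 17.9% for Pramef6, 16.1% for Oog2, 10.8% for Oog3 and 1.74% for Gm13078. It was 0 for Pramef8, Oog4 and Pramef12, whose levels rest on sequence of their own at that length. With stretches of 50 bases the share was 63.55% for Pramef25 and 14.8% for Gm13078. Pramef12os is transcribed from the opposite strand within Pramef12, and whether the counting used strand is not given in the sources used here, so RNA of the pair cannot be told apart. Pramef12os itself stood at 0.247 FPKM or less outside blastocyst controls 1 and 6, which had 0.586 and 0.358 FPKM.

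**Figure D1:**
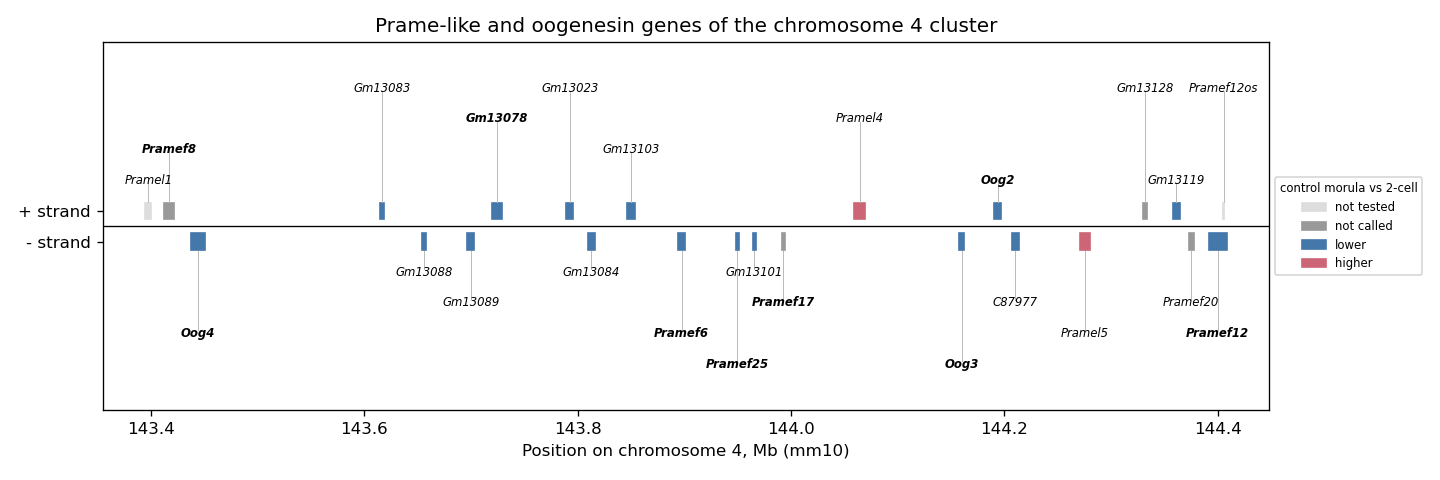
Map of the family genes on chromosome 4, with position in Mb (mm10) along the horizontal axis, genes of the + strand above the line and of the - strand below it, and the 9 genes described here in bold. Colour gives the call in control morulae against control 2-cell embryos, and most of the stretch is lower while Pramel4 and Pramel5, which lie between the lower genes, are higher.

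The oogenesin Oog3 was the most abundant of the 10 in 2-cell controls, at 2533, 2417, 2212 and 2434 FPKM (mean 2399 ± 135, SD, n = 4). Oog1, the first oogenesin described, stood at 586, 503, 493 and 444 FPKM (506 ± 58.9, n = 4). Below these came Gm13078 at 61.9, 94.9, 135 and 102 FPKM (98.4 ± 29.9, n = 4). The 3 genes kept this order in every 2-cell control without overlap, and Oog3 alone made up most of the summed level of the 10 genes, which was 3314, 3160, 3024 and 3126 FPKM, or 0.656 to 0.729% of all FPKM. The oogenesin Oog2 stood at 46.3, 40.6, 43.5 and 38.7 FPKM, above Oog4 at 29.1, 25.5, 26.7 and 26.3 FPKM without overlap. Pramef25 lay between them at 25.8, 36.4, 55.7 and 34.3 FPKM and overlapped both. The lowest were Pramef17, at 11.7, 16.1, 20.4 and 16.4 FPKM, Pramef6, at 8.01, 13.8, 22.7 and 16.6 FPKM, Pramef8, at 7.15, 5.57, 10.2 and 7.46 FPKM, and Pramef12, a gene known from spermatogenesis, at 5.16, 7.15, 5.44 and 5.78 FPKM. Each of these last 4 overlapped its neighbour in the order, whereas Oog4 and Pramef17 did not overlap. Control library 4 had the highest value of Gm13078, Pramef25, Pramef17, Pramef6 and Pramef8 in this group, and not of the oogenesins.

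By the morula stage most of these transcripts were nearly gone from control embryos. Oog3 stood at 2.60, 1.25, 3.52 and 3.42 FPKM in morula controls, Oog1 at 1.19, 1.015, 1.12 and 0.714 FPKM, and Oog2 at 0.0993, 0.0183, 0.0961 and 0.106 FPKM. Oog4 stood at 0.121, 0, 0.0942 and 0.0528 FPKM and so was listed at 0 in morula control 2. All 4 oogenesins were below 4 FPKM in every morula control. Pramef25 stood at 0.441, 0.201, 1.78 and 1.53 FPKM and Gm13078 at 0.186, 0.0611, 2.104 and 2.37 FPKM. Both were low in morula controls 1 and 2 and higher in controls 7 and 8. Pramef6 stood at 1.34, 0.874, 0.940 and 0.721 FPKM and Pramef12 at 1.51, 1.00, 1.45 and 1.27 FPKM. A pair of genes was less far below its 2-cell level: Pramef17 stood at 11.8, 7.81, 11.5 and 9.81 FPKM, and Pramef8 at 6.06, 3.02, 4.15 and 5.17 FPKM. The order in morula controls was accordingly another one, with Pramef17 first (10.2 ± 1.84, n = 4), then Pramef8 (4.60 ± 1.31), Oog3 (2.697 ± 1.05), Pramef12, Gm13078, Oog1, Pramef25, Pramef6, Oog2 and Oog4. In that order Pramef17 was apart from Pramef8 and Pramef6 from Oog2, and the other neighbours overlapped. The summed level of the 10 genes was 25.4, 15.3, 26.7 and 25.2 FPKM.

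All 10 genes passed the filter in control morulae against control 2-cell embryos, and limma called 8 of them lower and 0 higher. Over all 13655 genes tested, 30.3% were called lower and 32.3% higher, so many genes fell between these stages. In whole embryos pooled for sequencing, fewer cells of a type and less RNA per cell cannot be told apart. A library is counted as lower or higher against the mean of the other group on the tested scale. Oog3 fell by 9.40 (SE 0.23, limma adjusted p 2.81e-11, lower in 4 of 4 morula controls) and Oog1 fell by 7.99 (SE 0.17, adjusted p 2.74e-11, lower in 4 of 4). Gm13078 fell by 5.64 (adjusted p 5.23e-08), Oog2 fell by 5.33 (adjusted p 6.03e-11), Oog4 fell by 4.72 (adjusted p 1.34e-10) and Pramef25 fell by 4.32 (adjusted p 5.50e-08), each lower in 4 of 4 morula controls. Pramef6 fell by 2.98 (adjusted p 1.43e-07) and Pramef12 fell by 1.58 (adjusted p 2.06e-06), also lower in 4 of 4. Pramef8, at -0.63 (adjusted p 0.0106), and Pramef17, at -0.61 (adjusted p 0.00679), were lower in 4 of 4 morula controls but did not reach the size required. The 10 genes had a median of -4.52, beside 0.10 for all genes tested. After scaling, the groups of 10 of 10 genes did not overlap, beside 77.5% of all genes, while as deposited the ranges of Pramef8 and Pramef17 overlapped. Oog2 and Oog4 reached 1 FPKM in 2-cell libraries alone, so that for them the difference was part of being tested, as it was for 29.6% of all genes tested here. Pramef6, Pramef25 and Gm13078 reached 1 FPKM in fewer than 3 morula controls, so they too passed the filter only with their 2-cell libraries. The 8 genes were called under every one of 15 settings.

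**Figure D2:**
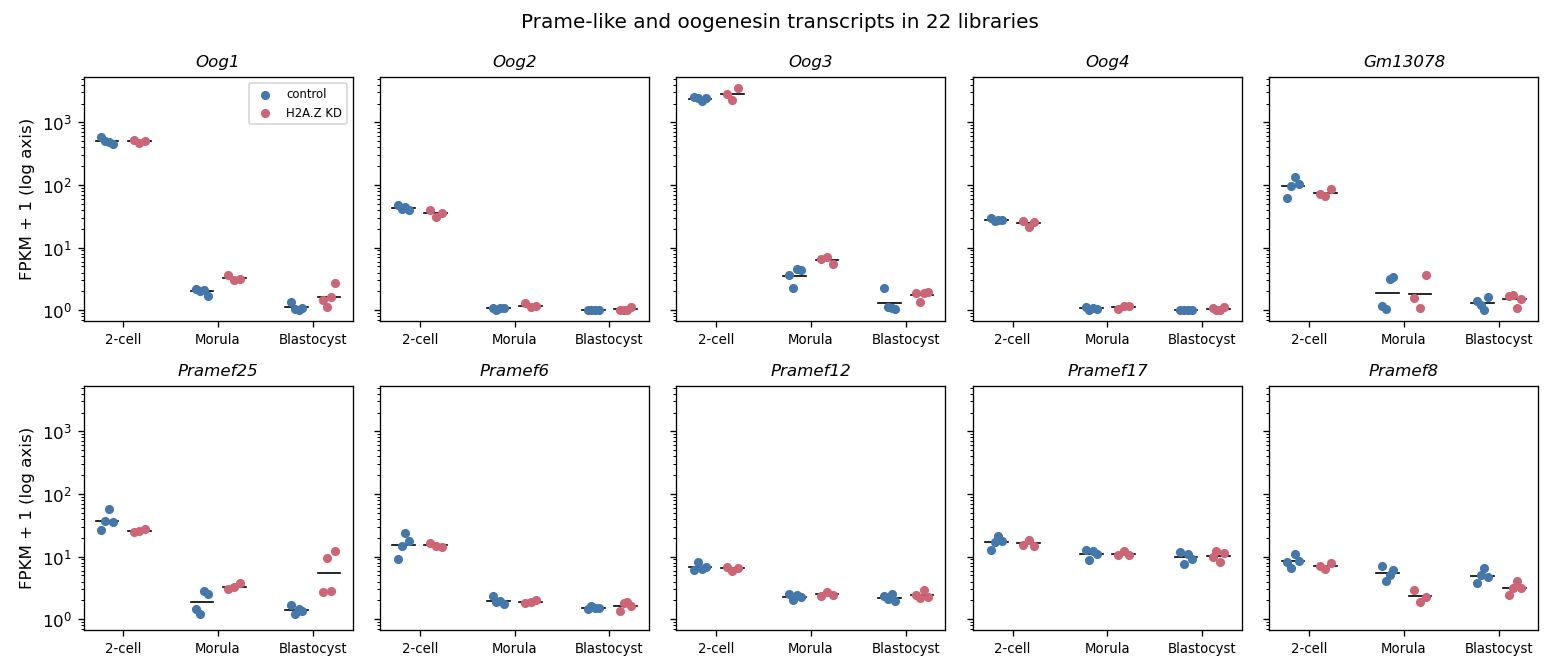
Level of each of the 10 genes in 22 libraries, as FPKM + 1 on a log axis, by stage along the horizontal axis, with control and H2A.Z KD libraries as separately coloured points and a bar at the geometric mean of FPKM + 1. The 4 oogenesins, Gm13078 and Pramef25 drop steeply between the 2-cell and the morula stage in both groups, while Pramef17, Pramef8 and Pramef12 stay within 1 order of magnitude.

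From morula to blastocyst the levels of controls moved less. Oog3 stood at 1.28, 0.108, 0.0906 and 0.0291 FPKM in blastocyst controls, so that control 1 lay far above the other 3 and within the morula range. Oog1 stood at 0.343, 0.0365, 0.0119 and 0.101 FPKM, below every morula control. Oog2 and Oog4 were listed at 0 in blastocyst controls 4, 5 and 6 and stood at 0.0259 and 0.0227 FPKM in control 1. Control 1 therefore held the highest value of all 4 oogenesins in this group. Pramef17 stood at 10.997, 6.73, 10.1 and 8.10 FPKM, Pramef8 at 2.78, 4.16, 5.48 and 3.77 FPKM and Pramef12 at 1.35, 1.09, 1.51 and 0.9505 FPKM. These 3 genes overlapped their morula ranges. Pramef6 stood at 0.468, 0.604, 0.531 and 0.489 FPKM, Pramef25 at 0.662, 0.197, 0.458 and 0.357 FPKM, and Gm13078 at 0.394, 0.198, 0 and 0.652 FPKM, all below 1 FPKM. In order, Pramef17, Pramef8, Pramef12 and Pramef6 followed each other without overlap, and from Pramef6 down each of Pramef25, Oog3, Gm13078, Oog1, Oog2 and Oog4 overlapped the gene before it.

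In this comparison 5 of the 10 genes passed the filter (Oog1, Oog3, Pramef8, Pramef12 and Pramef17), while Oog2, Oog4, Pramef6, Pramef25 and Gm13078 were too low to be tested. Only Oog3 was called, lower, and 0 were called higher, beside 12.9% lower and 13.4% higher among 11849 genes. Oog3 fell by 1.48 (SE 0.30, limma adjusted p 0.00122), with 3 of 4 blastocyst controls below every morula control. Oog1 was at -0.86 (adjusted p 0.000227, lower in 4 of 4), short of the size required, and with a pseudocount of 0.1 in place of 1 it was at -2.54 and was called. It passed the filter through its morula libraries alone. Pramef8 was at -0.22 (adjusted p 0.366), Pramef17 at -0.25 (adjusted p 0.294) and Pramef12 at -0.10 (adjusted p 0.571). The median of the 5 genes was -0.25, beside -0.03 for all genes tested, and 1 of the 5 had groups that did not overlap, beside 51.2% of all genes. This comparison shares its morula controls with the one before.

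At the 2-cell stage KD and control embryos carried the oogenesins at like levels. Oog3 stood at 2810, 2294 and 3497 FPKM in KD embryos (2867 ± 604, n = 3), Oog1 at 531, 471 and 510 FPKM and Oog2 at 39.2, 30.2 and 35.0 FPKM. Oog4 stood at 25.8, 20.3 and 24.7 FPKM. KD libraries 1 and 4 had more Oog3 and KD libraries 2 and 4 less Oog2 and Oog4 than any control, and all 4 genes overlapped between the groups. Gm13078 stood at 71.2, 64.9 and 86.2 FPKM, Pramef25 at 23.6, 24.2 and 26.3 FPKM and Pramef17 at 14.6, 17.5 and 13.8 FPKM. Pramef6 stood at 15.6, 13.6 and 13.1 FPKM, Pramef8 at 6.01, 5.26 and 6.81 FPKM and Pramef12 at 5.93, 5.00 and 5.59 FPKM. None of the 10 was apart from its controls. All 10 passed the filter, and limma called 0 higher and 0 lower, beside 0.0% higher and 0.0% lower among 12160 genes. At an unadjusted p under 0.05 there were 701 genes, of which 1 was among the 10, Pramef25 at -0.49 (p 0.0415, limma adjusted p 0.828, lower in 3 of 3 KD libraries). Oog3 was at 0.30 (adjusted p 0.839) and Gm13078 at -0.30 (adjusted p 0.847). The other 7 lay between -0.21 and 0.07. Of the 10, 4 were higher and 6 lower in sign, with a median of -0.07 beside 0.00 for all genes. H2afz was higher in every 2-cell KD library than in any later KD library. Without KD library 1 limma called 3 genes of the whole table and without control library 2 it called 1, none of them among the 10.

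In KD morulae, Pramef8 stood at 1.95, 0.853 and 1.25 FPKM (1.35 ± 0.556, n = 3) against 6.06, 3.02, 4.15 and 5.17 FPKM in controls. Oog3 stood at 5.53, 6.02 and 4.42 FPKM (5.32 ± 0.822, n = 3) against 2.60, 1.25, 3.52 and 3.42 FPKM, and Oog1 at 2.62, 2.02 and 2.12 FPKM (2.25 ± 0.322, n = 3) against 1.19, 1.015, 1.12 and 0.714 FPKM. The KD libraries were all below the controls for Pramef8 and all above them for both oogenesins. Pramef25 stood at 2.05, 2.23 and 2.73 FPKM against 0.441, 0.201, 1.78 and 1.53 FPKM, again with every KD library above every control. Gm13078 stood at 0.581, 0.0668 and 2.68 FPKM, overlapping the controls and following the replicate numbers, with the libraries numbered 1 and 2 below 0.6 FPKM in both groups and those numbered 6, 7 and 8 above 2 FPKM. Pramef17 stood at 9.47, 11.3 and 9.79 FPKM, Pramef12 at 1.33, 1.69 and 1.46 FPKM and Pramef6 at 0.799, 0.864 and 1.05 FPKM. Oog2 stood at 0.282, 0.125 and 0.151 FPKM, above every control though far below 1 FPKM, and Oog4 at 0.0310, 0.189 and 0.186 FPKM. The order in KD morulae was Pramef17, Oog3, Pramef25, Oog1, Pramef12, Pramef8, Gm13078, Pramef6, Oog2 and Oog4, so that Pramef8, next after Pramef17 in controls, came after Pramef12. The first 3 were apart from each other, as were Oog1 from Pramef12 and Pramef6 from Oog2.

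Of the 10 genes, 7 passed the filter in morulae, and Oog2, Oog4 and Pramef6 were too low. Limma called 1 lower and 0 higher, beside 2.59% lower and 1.0% higher among 10989 genes. Pramef8 fell by 1.17 (SE 0.22, limma adjusted p 0.00933, lower in 3 of 3 KD libraries). Oog3 was at 0.91 (SE 0.25, adjusted p 0.0369, higher in 3 of 3) and Oog1 at 0.77 (SE 0.15, adjusted p 0.0104, higher in 3 of 3), both past the adjusted p and short of the size. Pramef25 was at 0.89 (SE 0.30, adjusted p 0.0713, higher in 3 of 3). Pramef12 was at 0.19 (adjusted p 0.430), Pramef17 at 0.12 (adjusted p 0.659) and Gm13078 at -0.02 (adjusted p 0.987). Groups did not overlap in 4 of the 7, beside 28.2% of all genes, and 5 of the 7 were higher in sign, with a median of 0.19 beside 0.02. Pramef8 was called in 14 of 15 settings, from -1.60 to -1.01, and was lost with no filter on low values (adjusted p 0.0651, range over the settings 0.00174 to 0.0651). Oog3 was called in 4 of 15 settings, Pramef25 in 3 and Oog1 in 1. Without morula control 7, Oog3 (1.04) and Pramef25 (1.08) were called as well, and without control 8 Oog3 (1.04) was. With a pseudocount of 0.1, Oog3 (1.16) and Oog1 (1.21) joined Pramef8. Within the libraries numbered 1 and 2 and within those numbered higher, the differences were -1.06 and -1.27 for Pramef8, 0.75 and 0.79 for Oog1, 1.37 and 0.37 for Oog3, and 1.32 and 0.58 for Pramef25. The labels do not say what the numbers stand for. With the range of numbers as a term in the fit, Pramef25 (1.02) was called beside Pramef8. With each replicate number as a block, Oog3 (1.37) and Pramef25 (1.32) were called beside it, in a fit that left 1 residual degree of freedom.

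In KD blastocysts, Pramef25 stood at 1.68, 8.34, 1.87 and 11.3 FPKM (5.80 ± 4.81, n = 4) against 0.662, 0.197, 0.458 and 0.357 FPKM in controls (0.418 ± 0.195, n = 4). Every KD library was above every control, and KD libraries 4 and 6 were several times above KD libraries 1 and 5. Pramef8 stood at 1.46, 2.13, 3.06 and 2.16 FPKM (2.20 ± 0.658, n = 4) against 2.78, 4.16, 5.48 and 3.77 FPKM (4.05 ± 1.12, n = 4). KD library 5 lay above control 1 as deposited, and after scaling every KD library lay below every control. Pramef17 stood at 8.91, 11.4, 7.19 and 10.5 FPKM, Pramef12 at 1.45, 1.17, 1.89 and 1.27 FPKM and Pramef6 at 0.333, 0.839, 0.855 and 0.634 FPKM. These 3 overlapped their controls. Oog1 stood at 0.438, 0.131, 0.648 and 1.67 FPKM, Oog3 at 0.891, 0.352, 0.912 and 0.932 FPKM and Gm13078 at 0.716, 0.760, 0.102 and 0.525 FPKM. They overlapped their controls too, Oog1 and Oog3 through blastocyst control 1 alone. Oog2 (0, 0.0224, 0.0191 and 0.125 FPKM) and Oog4 (0.0677, 0, 0 and 0.109 FPKM) remained near 0. The order was Pramef17, Pramef25, Pramef8, Pramef12, Oog3, Oog1, Pramef6, Gm13078, Oog4 and Oog2, and Pramef12 and Oog3 alone were neighbours without overlap. The summed level of the 10 genes was 15.9, 25.2, 16.6 and 29.3 FPKM in KD blastocysts and 18.3, 13.1, 18.2 and 14.4 FPKM in controls, with Pramef25 the most abundant in KD library 6 and Pramef17 in the others.

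Of the 10 genes, 4 passed the filter in blastocysts (Pramef8, Pramef12, Pramef17 and Pramef25), and the 4 oogenesins, Pramef6 and Gm13078 were too low. Limma called 1 higher and 0 lower, beside 6.1% higher and 7.76% lower among 11828 genes. Pramef25 passed the filter through the KD libraries alone, so its place among the tested genes depended on the difference itself. Pramef25 rose by 1.96 (SE 0.44, limma adjusted p 0.00452, higher in 4 of 4 KD libraries). Pramef8 was at -0.65 (SE 0.19, adjusted p 0.0173), short of the size. Pramef12 was at 0.13 (adjusted p 0.541) and Pramef17 at 0.09 (adjusted p 0.801). Groups did not overlap in 2 of the 4, beside 35.5% of all genes, and the median of the 4 was 0.11 beside 0.00. Pramef25 was called in 15 of 16 settings, from 1.57 to 3.13, and was lost with no filter on low values (adjusted p 0.0559, range over the settings 0.00204 to 0.0559). Its difference was 0.69 between the libraries numbered 1 and 2.38 among those numbered higher.

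**Figure D3:**
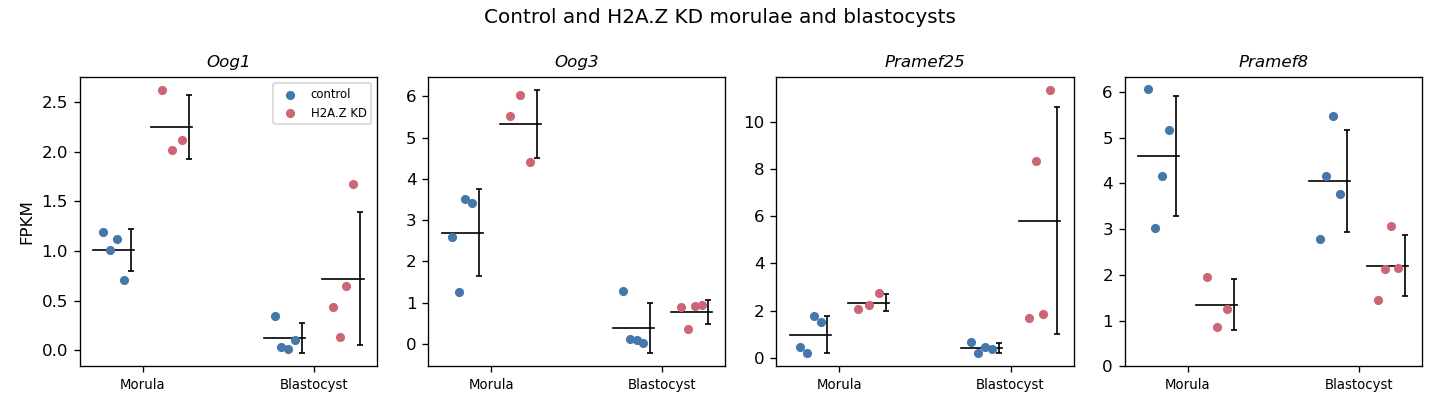
FPKM of Oog1, Oog3, Pramef25 and Pramef8 in morulae and blastocysts on a linear axis, with each point a control or H2A.Z KD library, the bar the group mean and the error bar its SD. The 4 genes were chosen after their values were seen, as those without overlap between KD and control morulae among the 7 tested, and Pramef8 lies lower and the others higher in KD morulae.

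The KD differences of the stages were compared by the interaction of stage and treatment, in which both contrasts with the morula share the morula libraries. Between the 2-cell stage and the morula, all 10 genes were tested and limma called 0 higher and 0 lower, beside 0.377% higher and 0.87% lower among 14605 genes. There were 2145 genes at an unadjusted p under 0.05, with 3 of the 10 among them. These were Pramef25, whose KD difference was greater by 1.36 in morulae (limma adjusted p 0.0959, higher in 3 of 3 KD morulae), Pramef8, at -0.97 (adjusted p 0.111, lower in 3 of 3), and Oog1, at 0.69 (adjusted p 0.142, higher in 3 of 3). Oog3 was at 0.59 (adjusted p 0.440), and the other 6 lay between -0.03 and 0.33. The median of the 10 was 0.22, beside 0.00 for all genes, and 8 of 10 were positive. The call of Pramef8 in morulae and not at the 2-cell stage is therefore no tested difference between the stages. With a pseudocount of 0.1, Oog1 was called at 1.14 (adjusted p 0.0416, range over the settings 0.0416 to 0.293). The count of 182 genes called in the whole table moved to 91 and 117 without 2-cell KD libraries 1 and 4, to 278, 109 and 108 without morula controls 1, 7 and 8, and to 86 and 85 without KD morulae 1 and 2. None of these settings called one of the 10. Between morula and blastocyst, 7 of the 10 were tested, without Oog2, Oog4 and Pramef6, and limma called 0 higher and 0 lower, beside 3.56% higher and 4.15% lower among 12727 genes. At an unadjusted p under 0.05 there were 3478 genes and 0 of the 7. Pramef25 was at 1.00 (limma adjusted p 0.306), Pramef8 at 0.51 (adjusted p 0.266), Oog3 at -0.54 (adjusted p 0.395) and Oog1 at -0.28 (adjusted p 0.574). Pramef25 in blastocysts and Pramef8 in morulae were thus called in one stage without a tested difference to the other.

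Of the other 31 genes of the family, 24 were tested in control morulae against control 2-cell embryos, and limma called 16 lower and 5 higher, with a median of -2.97. Of the 24, 14 reached 1 FPKM at the 2-cell stage alone, among them 4 of the 5 named next, all but C87977. The genes with the largest fall were Gm13023 (-7.75), Gm10436 (-7.67), C87977 (-6.00), Gm13084 (-5.73) and C87499 (-5.64), each lower in 4 of 4 morula controls (limma adjusted p at most 1.03e-10). Gm10436, which shares 30.0% of the Oog1 stretches, stood at 388, 326, 372 and 235 FPKM in 2-cell controls and at 0.583, 0.653, 0.669 and 0.495 FPKM in morula controls, a course like that of Oog1. Gm13128, which shares 56.35% of the Pramef17 stretches, was tested here and, like Pramef17, not called. The 5 higher genes were Pramel5 (4.59), Pramel4 (3.54), Pramel6 (3.18), Pramel7 (2.05) and Gm3139 (1.69). Pramel4 stood at 36.7, 22.5, 56.0 and 62.3 FPKM in 2-cell controls and at 545, 592, 390 and 472 FPKM in morula controls. Pramel7, described as a receptor through which UHRF1 is degraded in naive pluripotent cells, stood at 91.7, 104, 128 and 129 FPKM and then at 410, 487, 490 and 502 FPKM. Pramel4 to Pramel7 were thus far above the members in morulae, where none of the 10 genes exceeded 11.8 FPKM. Prame itself was listed at 0 in all but 2 of the 22 libraries, and Pramel1 did not exceed 1.55 FPKM. From morula to blastocyst in controls, 9 were tested, 5 were called lower (Gm3139 -2.08, D5Ertd577e -1.98, Pramel4 -1.56, Pramel7 -1.18 and B020004J07Rik -1.16) and 0 higher, with a median of -1.16. B020004J07Rik passed the filter through its morula libraries alone, and without morula control 7 it was at -0.98 and was not called (adjusted p from 0.000233 to 0.00505 over the settings).

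Under KD the other family genes gave 0 calls by limma among 26 tested at the 2-cell stage (median -0.10, 3 at an unadjusted p under 0.05) and 0 among 10 in morulae (median -0.16, 1 at an unadjusted p under 0.05). In blastocysts 2 of 8 rose and 0 fell, with a median of 0.76. Gm3139 stood at 31.6, 61.7, 86.3 and 74.2 FPKM in blastocyst controls and at 141, 155, 135 and 143 FPKM after KD, and rose by 1.26 (limma adjusted p 0.00143, higher in 4 of 4). B020004J07Rik stood at 0.226, 0.288, 0.0602 and 0.348 FPKM in controls and at 2.19, 4.75, 1.08 and 5.70 FPKM after KD, and rose by 1.72 (adjusted p 0.00155, higher in 4 of 4). Like Pramef25, B020004J07Rik was highest in KD blastocysts 4 and 6, overlapped no control and passed the filter through the KD libraries alone. In the interaction of morula and 2-cell stage 0 of 26 were called (3 at an unadjusted p under 0.05, median 0.09), and 1 was called without 2-cell control 1, 2-cell control 5, morula control 1 or KD morula 1. In that of blastocyst and morula 2 of 11 were called higher, Gm3139 at 1.40 (adjusted p 0.00959) and Pramel4 at 1.03 (adjusted p 0.0183), with a median of 0.47. That count was 1 without morula control 2, KD morula 1, KD morula 2 or blastocyst control 1 and with no filter, 3 with a pseudocount of 0.1, and 4 without KD morula 6 or with no scaling. Pramel4 was not called without morula control 2 (0.93), KD morula 1 (0.98), KD morula 2 (0.99), blastocyst control 1 (0.89) or KD blastocyst 5 (0.91), nor with no filter on low values (1.03), with adjusted p-values from 0.00940 to 0.0633 over all settings.

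Of 20 transcripts known from oocytes, 19 were tested in control morulae against 2-cell embryos, and limma called 16 lower and 1 higher (Khdc3), with a median of -2.99. Bmp15, an oocyte growth factor, stood at 138, 128, 138 and 116 FPKM in 2-cell controls and fell by 6.60 (adjusted p 2.74e-11, lower in 4 of 4). Bmp15 and 9 more of the 19 passed the filter through their 2-cell libraries alone. Of 19 transcripts of 2-cell genome activation, such as the Zscan4 genes, 17 were tested and all 17 were called lower, with a median of -4.15, 9 of them tested through the 2-cell libraries alone. Of 12 lineage genes of the blastocyst, 9 were tested, 7 were called higher and 1 lower, with a median of 3.51, and 6 of the 9 reached 1 FPKM at 1 of the 2 stages alone. From morula to blastocyst the oocyte list had 1 higher and 2 lower of 7 (median -0.49), the activation list 4 lower of 5 (median -1.18) and the lineage list 4 higher and 2 lower of 10 (median 0.59), with 1, 2 and 1 of these genes tested through 1 of the stages alone. Among the partners of PRAME in its ubiquitin ligase, Cul2 (1.71), Elob (1.39) and Eloc (2.31) rose from the 2-cell stage to the morula in controls, 3 of 4 tested, and 0 of 4 were called from morula to blastocyst (3 at an unadjusted p under 0.05). Among targets described for PRAME family proteins, Uhrf1 fell by 1.70 and Rarb rose by 1.64 between the 2-cell stage and the morula, 2 of 4 tested, with Rarb tested through its morula libraries alone, and Uhrf1 rose by 1.66 from morula to blastocyst, 1 of 3. These are RNA levels, and the proteins of the partners and targets were not measured in these libraries.

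At the 2-cell stage under KD none of these lists had a gene called by limma, with 0 of 19 oocyte genes, 1 of 18 activation genes, 0 of 4 lineage genes, 1 of 4 ligase partners and 0 of 3 targets at an unadjusted p under 0.05 (medians -0.09, 0.05, -0.21, 0.10 and 0.02). In KD morulae, where Oog3 and Oog1 were higher, the oocyte list had 1 of 8 called, Ooep, which fell by 1.24 (adjusted p 0.00761, lower in 3 of 3), with a median of 0.10. Ooep, a subunit of the subcortical maternal complex, stood at 1.85, 2.85, 3.58 and 2.45 FPKM in morula controls and at 0.325, 0.330 and 0.810 FPKM in KD morulae, and so passed the filter through the controls alone. The 2-cell activation list had 0 of 8 called (4 at an unadjusted p under 0.05), with 8 of 8 higher in sign and a median of 0.53. The lineage list had 1 of 8 called, Nanog, which fell by 2.23 (adjusted p 0.00645, lower in 3 of 3), with a median of -0.29. With no filter on low values Ooep (adjusted p 0.0606, range 0.000206 to 0.0606) and Nanog (adjusted p 0.0718, range 5.41e-20 to 0.0718) were not called in morulae. In KD blastocysts the activation list had 3 of 5 called higher and a median of 1.57. Zfp352 rose by 1.57 (adjusted p 0.00156), Usp17lb by 1.95 (adjusted p 0.000948), each higher in 4 of 4 KD libraries, and Tcstv3 by 2.01 (adjusted p 0.0145, higher in 3 of 4), though Tcstv3 overlapped its controls and Zfp352 and Usp17lb passed the filter through the KD libraries alone. Tcstv3 stood at 5.73, 11.5, 0.988 and 18.8 FPKM in KD blastocysts and at 0.760, 1.69, 0.248 and 1.21 FPKM in controls, and so had its highest KD values in libraries 4 and 6, as Pramef25 did. With no filter on low values Tcstv3 was not called (adjusted p 0.115, range over the settings 0.000419 to 0.115). The oocyte list had 1 of 5 called, Ooep, which fell by 3.53 (adjusted p 1.48e-06, lower in 4 of 4), with a median of 0.27. The lineage list had 1 of 10 called, Krt18, which fell by 1.02 (adjusted p 0.00126, lower in 4 of 4), with a median of -0.07. Krt18 was not called without blastocyst control 4 (-0.93), KD blastocyst 5 (-0.98) or KD blastocyst 6 (-0.93), nor with scaling factors over filtered genes (-0.995), and its adjusted p ranged from 0.000440 to 0.0116. Ligase partners and targets had 0 called in KD morulae (0.02 and 0.36 as medians, 1 of 4 and 0 of 3 at an unadjusted p under 0.05) and 0 in KD blastocysts (0.09 and 0.42, 2 of 4 and 3 of 3). Khdc3, Ooep, Nanog, Usp17lb, Tcstv3 and Hba-a1 were chosen for mention once their values were known.

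The share of FPKM from mitochondrial genes, a sign of RNA quality, was 15.7 to 18.3% in KD morulae against 13.3 to 14.6% in controls, without overlap. In blastocysts it was 12.98 to 15.26% after KD against 15.17 to 20.04%, and at the 2-cell stage 22.8 to 26.9% against 20.7 to 27.0%. Among markers of cell types, the 6 oocyte markers summed to 224 to 263 FPKM in 2-cell controls and 208 to 220 FPKM in 2-cell KD embryos, and to 17.01 to 20.6 FPKM and 15.6 to 19.5 FPKM in morulae. In blastocysts they summed to 36.6 to 47.1 FPKM in controls, with Ooep the most abundant, and to 7.91 to 10.7 FPKM after KD. Of the 3 markers tested in KD blastocysts, Ooep alone was lower. The other 2, Padi6 and Zp3, were higher in sign and not called. Ooep was itself called higher in control blastocysts than in control morulae, so the sum follows Ooep rather than the markers as a set. The 4 inner cell mass markers summed to 140 to 174 FPKM in morula controls and 40.6 to 59.4 FPKM in KD morulae, and to 117 to 226 FPKM and 147 to 309 FPKM in blastocysts. The 5 trophectoderm markers summed to 981 to 1468 FPKM in blastocyst controls and 571 to 765 FPKM in KD blastocysts. Of 8 cumulus or granulosa markers 1, Amhr2, reached 1 FPKM, and all 4 sperm markers were below 1 FPKM in every library. The oviduct marker Ovgp1 was at most 1.40 FPKM, in 2-cell embryos. Of 3 blood markers, Hba-a1 stood at 3.63, 1.31, 1.16 and 2.65 FPKM in morula controls and at 7.77, 5.01 and 4.23 FPKM in KD morulae, and rose by 1.20 (adjusted p 0.0172, higher in 3 of 3). Without KD morula 1 (1.02) or KD morula 2 (1.26) it was not called, nor with no filter on low values, and its adjusted p ranged from 9.26e-05 to 0.110. In blastocysts it stood at 0.599, 1.05, 1.66 and 1.79 FPKM in controls and at 2.48, 3.71, 3.22 and 2.09 FPKM after KD, without overlap and short of the size (0.80, adjusted p 0.00986). The part of these differences in the values of the 10 genes was not tested.

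The genes outside the family whose log2(FPKM + 1) over the 22 libraries was most like the mean of the 10 were Gm38025, Gm36958, Gm42553, Gm44087 and Gm44183, with Pearson r of 0.998, 0.997, 0.997, 0.997 and 0.997 among 12486 genes compared. The points share their stage, and 1566 genes had an r above 0.95, so likeness here is chiefly a high level at the 2-cell stage and a low one later.

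Promoters from RefSeq (GRCm38.p6), 250 bases before to 50 after the start of the gene, matched 9 of the 10 genes, without Pramef8. Both strands were searched for the TATA box TATAAA, the NOBOX element TAATTG, the homeobox core TAATC, the E-box CANNTG and the GC box GGGCGG. The TATA box was in 2 of 9, Oog2 and Oog3, beside 13.6% of 32817 promoters. TAATTG was in 3 of 9, Oog3, Oog4 and Pramef12, beside 8.0%. TAATC was in 5 of 9, Oog1, Oog3, Oog4, Gm13078 and Pramef6, beside 22.0%. CANNTG was in 9 of 9, beside 72.3%, and GGGCGG in 0 of 9, beside 35.6%. Of 24 promoters of other family genes, 7 held TATAAA, 7 TAATTG, 12 TAATC, 22 CANNTG and 1 GGGCGG. A match describes the letters in this window and shows no bound factor. The promoters of the 4 oogenesins, which fell together after the 2-cell stage, and of Pramef25, which was called in KD blastocysts after passing the filter through the KD libraries alone and not called with no filter, are given 5′ to 3′ on the strand of the gene, with matches of the TATA box, the NOBOX element and the homeobox core on either strand in capitals. They are chr12:87602415-87602714 (+ strand) for Oog1, chr4:144190467-144190766 (+ strand) for Oog2, chr4:144162602-144162901 (- strand) for Oog3, chr4:143450275-143450574 (- strand) for Oog4 and chr4:143950967-143951266 (- strand) for Pramef25, which holds none of the 3. In Oog2 the TATAAA begins at base 221 of the window and in Oog3 at base 222, at nearly the same distance from the start.
Oog1: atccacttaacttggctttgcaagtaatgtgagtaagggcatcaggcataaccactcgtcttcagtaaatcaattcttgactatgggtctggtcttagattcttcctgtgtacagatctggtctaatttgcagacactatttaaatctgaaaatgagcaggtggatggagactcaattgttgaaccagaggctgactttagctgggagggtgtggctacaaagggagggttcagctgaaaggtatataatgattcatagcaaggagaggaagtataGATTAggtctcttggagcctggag
Oog2: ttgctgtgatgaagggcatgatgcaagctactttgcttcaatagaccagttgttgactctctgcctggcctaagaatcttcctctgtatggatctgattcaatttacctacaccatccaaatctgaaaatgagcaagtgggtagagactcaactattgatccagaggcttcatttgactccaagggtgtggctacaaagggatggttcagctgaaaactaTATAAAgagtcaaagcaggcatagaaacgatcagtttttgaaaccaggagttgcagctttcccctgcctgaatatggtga
Oog3: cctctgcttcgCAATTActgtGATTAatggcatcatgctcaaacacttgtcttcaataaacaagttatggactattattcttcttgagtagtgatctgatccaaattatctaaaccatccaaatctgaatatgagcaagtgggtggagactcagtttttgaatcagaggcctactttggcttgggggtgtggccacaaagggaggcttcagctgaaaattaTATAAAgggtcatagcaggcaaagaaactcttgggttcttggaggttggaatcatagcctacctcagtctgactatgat
Oog4: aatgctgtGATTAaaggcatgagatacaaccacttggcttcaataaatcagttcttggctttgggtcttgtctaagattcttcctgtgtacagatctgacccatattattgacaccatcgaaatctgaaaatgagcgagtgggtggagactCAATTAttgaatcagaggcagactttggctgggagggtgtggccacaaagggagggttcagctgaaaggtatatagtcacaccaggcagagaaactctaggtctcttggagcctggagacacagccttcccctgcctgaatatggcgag
Pramef25: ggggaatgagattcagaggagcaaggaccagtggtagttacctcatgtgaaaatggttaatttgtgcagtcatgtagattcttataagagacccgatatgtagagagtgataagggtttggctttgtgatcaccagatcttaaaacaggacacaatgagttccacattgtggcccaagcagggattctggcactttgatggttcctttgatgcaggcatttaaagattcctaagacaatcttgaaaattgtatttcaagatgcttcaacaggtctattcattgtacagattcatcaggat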

How the data were processed

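Per the labels, the authors mapped reads to mm10 with STAR and made the deposited FPKM values with StringTie 2.1.4. From these values, FPKM were divided by median-of-ratios factors taken over genes above 0 in all libraries of a fit and centred on their geometric mean, which lay between 0.874 and 1.20. Genes reaching an FPKM of 1 in 3 or more libraries of a fit were tested on log2(scaled FPKM + 1) with limma 3.58.1 (lmFit, eBayes with trend) in R 4.3.3, with Benjamini-Hochberg adjustment over all genes tested. There were 7 comparisons: KD against control at each stage, morula against 2-cell and blastocyst against morula in controls, and the 2 interactions. Interactions and comparisons of neighbouring stages share libraries. The fit was tested on simulated data, and the outcome is not given here. The p-values measure the spread between these samples.

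Members were the symbols listed. Named genes were all members, H2afz and H2afv, up to 5 called family genes in each direction per comparison, Pramel4 to Pramel7, Prame and Pramel1, genes of the companion lists, and the 5 genes most like the members. Members and lists were chosen with earlier results of these data known. The construction of the scaling factors was chosen among 4 after their counts of called genes in morulae had been seen, to follow an earlier processing of these data. Alternatives were another pseudocount, no filter, no scaling, 3 other constructions of the factors, leaving out each library, and terms for replicate number or its range. Gene positions are from GENCODE for mm10. Protein sequences were not analysed here.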

Additional observations from a re-analysis of the deposited data

Results flagged for a closer look

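Groups of 4 libraries were examined for a library far from the other 3. This was done for the genes given fold changes in the text and for 4 library measures. These were summed FPKM, the shares of the highest and of the mitochondrial genes, and the number of genes reaching 1 FPKM. In 164 groups 14 were found, all of them for genes, where chance gives about 1 in 20 groups. Blastocyst control 1 held the odd value of Oog3 (1.28 FPKM, the others at most 0.108), of Oog2 (0.0259 FPKM), of Oog4 (0.0227 FPKM) and of Gm10436 (0.226 FPKM), the last 3 beside libraries listed at 0, and of Cul2 (21.5 FPKM). Oog3 was low in blastocyst KD 4 (0.352 FPKM) and Oog2 low in morula control 2 (0.0183 FPKM). In morula control 1, Pramel7 was low (410 FPKM) and Cul2 high (37.8 FPKM). D5Ertd577e was high in morula control 8 (59.0 FPKM), Gm13023 (0.938 FPKM) and Gm13084 (0.0547 FPKM) in blastocyst KD 6, and Ooep (12.02 FPKM) and Nanog (0.422 FPKM) in 2-cell control 4.

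The KD difference itself differed between stages for genes outside the 10 members. By limma's interaction it was more negative in morulae than at the 2-cell stage for H2afz (-2.88, not called with no filter on low values, adjusted p 0.0531) and H2afv (-2.71), and less negative in blastocysts than in morulae for H2afv (1.04). From morula to blastocyst it moved upward for Pramel4 (1.03) and Gm3139 (1.40). H2afv was not called without morula control 2 (0.98), KD morula 6 (0.99), blastocyst control 5 (0.99), KD blastocyst 1 (0.89) or KD blastocyst 4 (0.96), nor with no filter on low values (adjusted p 0.0661).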

How the results depend on the processing

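Depth is unknown, and groups of 3 or 4 libraries limit what can be detected, above all for members below 1 FPKM. Terms for replicate number or its range were not fitted for the interactions or for control blastocysts against morulae. Each named fold change was computed anew under each setting run for its comparison in which the gene passed the filter. Of the values so obtained, 883 had the same direction and side of the threshold, 12 were reversed, 9 newly called and 11 no longer called, and leaving out each library gave 1157, 26, 9 and 16 values. The cause was not tested where a result moved. The 3 other constructions of the scaling factors, added after seeing the data, left the count of members called the same in all 7 comparisons. With them 387, 385 and 388 genes were called in morulae, beside 395.

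With a pseudocount of 0.1, 790 genes were called in KD morulae and 2479 in KD blastocysts, 3 members in KD morulae, 2 in control blastocysts against morulae and 1 in the interaction of morula and 2-cell stage. Gm13078 turned to 0.027 in KD morulae, and Oog3 to 0.28 and Oog1 to 0.44 in the interaction of blastocyst and morula. With no filter, 171 genes were called in KD morulae, 68 and 576 in the interactions, and 0 members in KD morulae and in KD blastocysts. With no scaling, Pramef17 (-0.054), Pramef6 (-0.030) and Oog1 (-0.000933) turned at the 2-cell stage, and Pramef12 (0.021) and Pramef17 (0.071) in the interaction of blastocyst and morula. The split of higher and lower calls became 71 and 424 in KD morulae (110 and 285 with scaling) and 605 and 434 in that interaction (453 and 528). In the interaction of morula and 2-cell stage it became 54 and 204 (55 and 127 with scaling). With factors over filtered genes Pramef17 was at -0.000673 at the 2-cell stage. The median of all genes moved from 0.02 to -0.09 in KD morulae and from -0.01 to 0.11 in the interaction of blastocyst and morula with no scaling, and from 0.10 to -0.07 in control morulae against 2-cell embryos with filtered genes and to -0.03 with genes above 0 in the whole table.

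Deviations from the group mean in a control and a KD library of the same replicate number had a mean correlation of 0.146 over 3 pairs of 2-cell libraries, 0.138 over 2 pairs of morulae and 0.0825 over 4 pairs of blastocysts, with a lowest pair at -0.11. For pairs with different numbers the means were -0.0487, -0.0281 and -0.0288. By range of numbers, all 6 morula pairs of the same range were positive (0.0944 to 0.346) and all 6 across ranges negative (-0.278 to -0.0944). At the 2-cell stage 5 of 6 and 1 of 6 were positive, and in blastocysts 6 of 10 and 2 of 6. Deviations from a group mean cancel within the group, so positive values in some pairs bring negative values in others. The negative pairs are therefore no separate result. With the replicate number as a block, 3 members were called in KD morulae (Oog3 1.37 and Pramef25 1.32 beside Pramef8) and 0 genes at the 2-cell stage, 521 in KD morulae, 1646 in KD blastocysts and 8584 in control morulae against 2-cell embryos. The differences in KD morulae then came from the 2 pairs with shared numbers, and 1 residual degree of freedom was left. In that fit with the block Gm13078 was at 0.23 in KD morulae, and H2afz at -0.18 and Elob at 0.97, not called, in control morulae against 2-cell embryos. With the range of numbers as a batch term, 2 members were called in KD morulae and Gm13078 was at 0.25.

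Leaving out each library in turn gave 0 to 3 genes called at the 2-cell stage, 85 to 278 in the interaction of morula and 2-cell stage and 1 to 3 members in KD morulae. At the 2-cell stage it gave Pramel7 from -0.16 to 0.015, Pramef12 from -0.074 to 0.079, Oog4 from -0.20 to 0.014, Pramef17 from -0.11 to 0.094, Pramef6 from -0.20 to 0.21 and Oog1 from -8.32e-05 to 0.16. Gm13078 ranged from -0.30 to 0.39 in KD morulae, over the 4 runs in which it passed the filter, and Pramef17 from -0.052 to 0.25 in KD blastocysts. In the interaction of morula and 2-cell stage Pramel7 ranged from -0.36 to 0.065, Gm13078 from -0.29 to 0.66 and Pramef6 from -0.20 to 0.19. In that of blastocyst and morula Gm13078 ranged from -0.19 to 0.52, over the 12 runs in which it passed the filter, and Pramef17 from -0.20 to 0.091. With stretches of 50 bases instead of 100 the share of sequence in common with other genes was higher for 8 of 10 members, at 89.0% for Oog1, 73.5% for Pramef17, 63.55% for Pramef25, 33.7% for Pramef6, 33.4% for Oog2, 19.7% for Oog3, 14.8% for Gm13078 and 0.707% for Oog4, and 0 for Pramef8 and Pramef12.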
